A study of Mus musculus with 70 samples.

Results

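The genes described here are those of the AMPA and NMDA receptor subunits in mouse dorsal hippocampus: Gria1, Gria2, Gria3 and Gria4 for the AMPA receptor and Grin1, Grin2a, Grin2b, Grin2c, Grin2d and Grin3a for the NMDA receptor. They are 10 of the 24346 genes listed, taken by symbol, and all 10 had a mean of at least 1 FPKM and were tested. RNA was sequenced from the bilateral dorsal hippocampus of 70 adult male C57BL/6J mice, 12 weeks old and housed singly, in 7 groups of 10 libraries, with 5 libraries of each group from each of 2 harvest cohorts. Exercise groups are named by days of initial voluntary wheel running, days of sedentary delay and days of reactivating running. They are 14-14-0, 14-0-0, 0-0-2, 14-7-2 and 14-7-0. Wheels were taken away the night before training. Mice of these groups and sedentary mice, which had no wheel, were trained for 3 min in a subthreshold object location memory task (OLM) and the tissue was taken 1 h later. Home cage mice had neither a wheel nor OLM. Each library came from 1 mouse.

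AMPA and NMDA receptors are the ligand-gated channels of fast excitatory transmission. AMPA receptors are tetramers of GluA subunits (Gria genes) and carry most of the fast current, with GluA2 setting low calcium permeability. NMDA receptors join the obligatory GluN1 (Grin1) to GluN2 subunits (Grin2 genes), which set kinetics and magnesium block, or to GluN3A (Grin3a), which lowers calcium permeability. In hippocampal pyramidal cells they are known for their part in long-term potentiation: NMDA receptors admit the calcium that triggers it, and AMPA receptors added to the synapse carry the larger response. OLM depends on this tissue, so the comparisons ask whether subunit transcripts differed with the running pattern 1 h after training.

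The coding sequence that all 10 genes share most closely lies at the end of the third membrane helix, which closes the pore. It is shown because it makes the family visible in its own letters, and because the genes spell it with different bases. It is printed for 7 of the genes. Each line is a 69-base window of the coding strand, within 1 exon of the longest coding transcript of GENCODE M21 (build GRCm38, which is mm10). The capitals mark 7 codons that encode the same residues in every member.
Gria1: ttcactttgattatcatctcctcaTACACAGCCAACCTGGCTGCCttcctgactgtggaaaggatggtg
Gria2: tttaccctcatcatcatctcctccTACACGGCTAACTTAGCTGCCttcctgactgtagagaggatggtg
Gria3: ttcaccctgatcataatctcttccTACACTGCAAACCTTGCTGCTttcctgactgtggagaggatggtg
Gria4: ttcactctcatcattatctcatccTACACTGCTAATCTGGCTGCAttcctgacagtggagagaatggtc
Grin1: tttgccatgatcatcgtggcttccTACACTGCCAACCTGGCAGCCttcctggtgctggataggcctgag
Grin2c: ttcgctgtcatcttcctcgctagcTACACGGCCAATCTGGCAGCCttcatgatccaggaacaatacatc
Grin3a: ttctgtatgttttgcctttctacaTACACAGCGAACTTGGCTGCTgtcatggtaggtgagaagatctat
The windows lie at chr11:57283550-57283618 (Gria1, plus strand, exon 12 of 16), chr3:80702548-80702616 (Gria2, minus, exon 12 of 16), chrX:41620837-41620905 (Gria3, plus, exon 12 of 16) and chr9:4461996-4462064 (Gria4, minus, exon 13 of 17). For the NMDA receptor they lie at chr2:25297178-25297246 (Grin1, exon 15 of 21), chr11:115253728-115253796 (Grin2c, exon 11 of 15) and chr4:49770449-49770517 (Grin3a, exon 3 of 9), all on the minus strand. Of the 7 shared codons, 2 ended in G or C in Gria3 and Gria4 and 5 did in Gria1, Grin1 and Grin2c.

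The ends of the reading frames differ much more in base composition. They are shown because several subunits, though not all, varied between libraries along with base composition and length. Each line holds the last 60 coding bases before the stop codon, with the last 4 codons in capitals. In these 5 subunits those codons encode the C-terminal ligand that binds PDZ domains of scaffold proteins, such as GRIP1 and PICK1 for GluA2 and GluA3 and the PSD-95 family for GluN2.
Gria2: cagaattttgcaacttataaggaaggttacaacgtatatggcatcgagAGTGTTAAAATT
Gria3: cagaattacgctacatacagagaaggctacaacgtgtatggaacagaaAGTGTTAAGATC
Grin2b: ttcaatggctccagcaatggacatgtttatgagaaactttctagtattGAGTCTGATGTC
Grin2c: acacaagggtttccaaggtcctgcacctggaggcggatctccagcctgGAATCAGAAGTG
Grin2d: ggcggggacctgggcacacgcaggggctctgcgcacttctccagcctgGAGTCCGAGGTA
These lie at chr3:80689109-80689168 (minus strand), chrX:41672402-41672461 (plus), chr6:135732101-135732160 (minus), chr11:115249574-115249633 (minus) and chr7:45832783-45832842 (minus). GC content of the 60 bases was 33.3% in Gria2, 40% in Gria3 and 38.3% in Grin2b, against 56.7% in Grin2c and 70% in Grin2d. Over the whole longest coding transcript it was 36.8% in Gria2 and 43.0% in Gria3, and 59.4% in Grin1, 62.1% in Grin2c and 65.0% in Grin2d. The median of tested genes was 50.3%, and 99.4% of them had a higher GC content than Gria2 while 0.432% had a higher one than Grin2d. Transcripts of Grin2b (24060 bases), Grin2a (14634) and Gria2 (10371) are far longer than the median of 3258 bases, mostly in the sequence after the coding part. The genes themselves lie at chr11:57011387-57330244 (Gria1), chr3:80681450-80802835 (Gria2), chrX:41400854-41678601 (Gria3), chr9:4417896-4796234 (Gria4), chr2:25291181-25319187 (Grin1), chr16:9567898-9995560 (Grin2a), chr6:135713233-136173511 (Grin2b), chr11:115249169-115267243 (Grin2c), chr7:45831883-45878378 (Grin2d) and chr4:49661611-49845744 (Grin3a).

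A single library went against its tissue label. In sedentary replicate 6, all 5 markers of dentate granule cells and all 5 of glutamatergic neurons were the lowest of the 70 libraries, none of them at 0. Slc17a7, the vesicular glutamate transporter of these neurons, measured 17.1 FPKM there and 367 to 870 FPKM in the other 69. Of 6 inhibitory neuron markers, 3 were the highest of the 70 in it and 2 the lowest. In the same library 3 of 7 thalamus markers and all 5 oligodendrocyte markers were the highest of the 70. The summed level of the glutamatergic list was 24.9 FPKM in it and 532 to 1148 FPKM in the others, and that of the thalamus list was 328 FPKM against 17.1 to 211. The plot of differences from sedentary mice therefore shows each of them with and without this library. Choroid plexus markers were also uneven: the median summed level of 7 genes was 2297 FPKM in 14-0-0 and 2116 in 14-14-0, and 85.05 to 128.7 in the other 5 groups. Library 14-7-0 replicate 4 had 10279 genes at 0, against 6243 to 7199 in the others. The study lists total reads by lane and index; these were not matched to the libraries here, so the depth behind each FPKM value is not given.

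Gria1 was the most abundant subunit transcript and Grin2d the least. Over the 70 libraries, AMPA subunits measured 250 ± 26.6 FPKM for Gria1 (SD, n = 70), 176 ± 33.8 for Gria2, 57.7 ± 7.08 for Gria3 and 14.3 ± 1.93 for Gria4, and the first of these exceeded 98.1% of tested genes. Gria1 is the subunit most tied to activity-dependent delivery to synapses, and Gria4 is prominent in inhibitory neurons and thalamus. Over the 69 libraries other than sedentary replicate 6, Gria1 made up 50.4 ± 3.46% of the summed AMPA subunit FPKM (SD, n = 69), Gria2 35.1 ± 3.36%, Gria3 11.6 ± 0.645% and Gria4 2.86 ± 0.49%. Gria4 made up 7.2% in sedentary replicate 6. FPKM are scaled by transcript length, so these levels can be set side by side, but only roughly. The transcript lengths used for the deposited values are not given in the sources used here. After that scaling, several subunits still varied with slopes of each library over transcript length and GC content, described below.

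Among NMDA subunits, Grin1 measured 123 ± 20.6 FPKM (SD, n = 70), Grin2a 25.1 ± 6.87, Grin2b 18.2 ± 6.01, Grin2c 10.3 ± 1.6, Grin3a 4.6 ± 0.943 and Grin2d 2.12 ± 0.919. Grin1 thus made up 67 ± 4.81% of the summed NMDA subunit FPKM (SD, n = 69, without sedentary replicate 6). Grin2a and Grin2b, the main GluN2 subunits of adult hippocampal pyramidal cells, made up 45.1 ± 4.49% and 31.9 ± 5.59% of the GluN2 sum, Grin2c 19.2 ± 5.74% and Grin2d 3.82 ± 1.65%. In sedentary replicate 6 the GluN2 sum was 6.62% Grin2a, 17.9% Grin2b, 41.7% Grin2c and 33.9% Grin2d. Its Grin2a and Grin2d shares lay outside the ranges of the other 69 libraries (33.4% to 58% and 1.11% to 10.2%). Its Grin2b and Grin2c shares lay within theirs (13.7% to 41.3% and 10.8% to 41.8%). Grin2c is best known from cerebellar granule cells, and Grin2d from inhibitory neurons, thalamus and brainstem.

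The order of the levels held in nearly every library. Gria1 was above Gria2 in 68 of 70 libraries, Gria2 above Grin1 in 65, Grin1 above Gria3 in 70, Gria3 above Grin2a in 70 and Grin2a above Grin2b in 65. Grin2b was above Gria4 in 55 of 70, the neighbours with the most exchange, and Gria4 was above Grin2c in 66. Grin2c was above Grin3a in 69, and Grin3a above Grin2d in 70. Neighbours whose mean ± SD ranges overlapped were Gria2 with Grin1, Grin2a with Grin2b, and Grin2b with Gria4.

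The groups overlapped for every member. For 9 of the 10, the highest and the lowest group mean differed by a ratio of 1.09 (Grin2c) to 1.21 (Grin3a). For Grin2d the ratio was 1.54, with sedentary at 2.76 ± 1.8 FPKM (SD, n = 10) as the highest mean and 14-0-0 at 1.79 ± 0.47 as the lowest. Leaving out sedentary replicate 6, the sedentary mean of Grin2d was 2.23 ± 0.69 FPKM (n = 9).

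**Figure D1:**
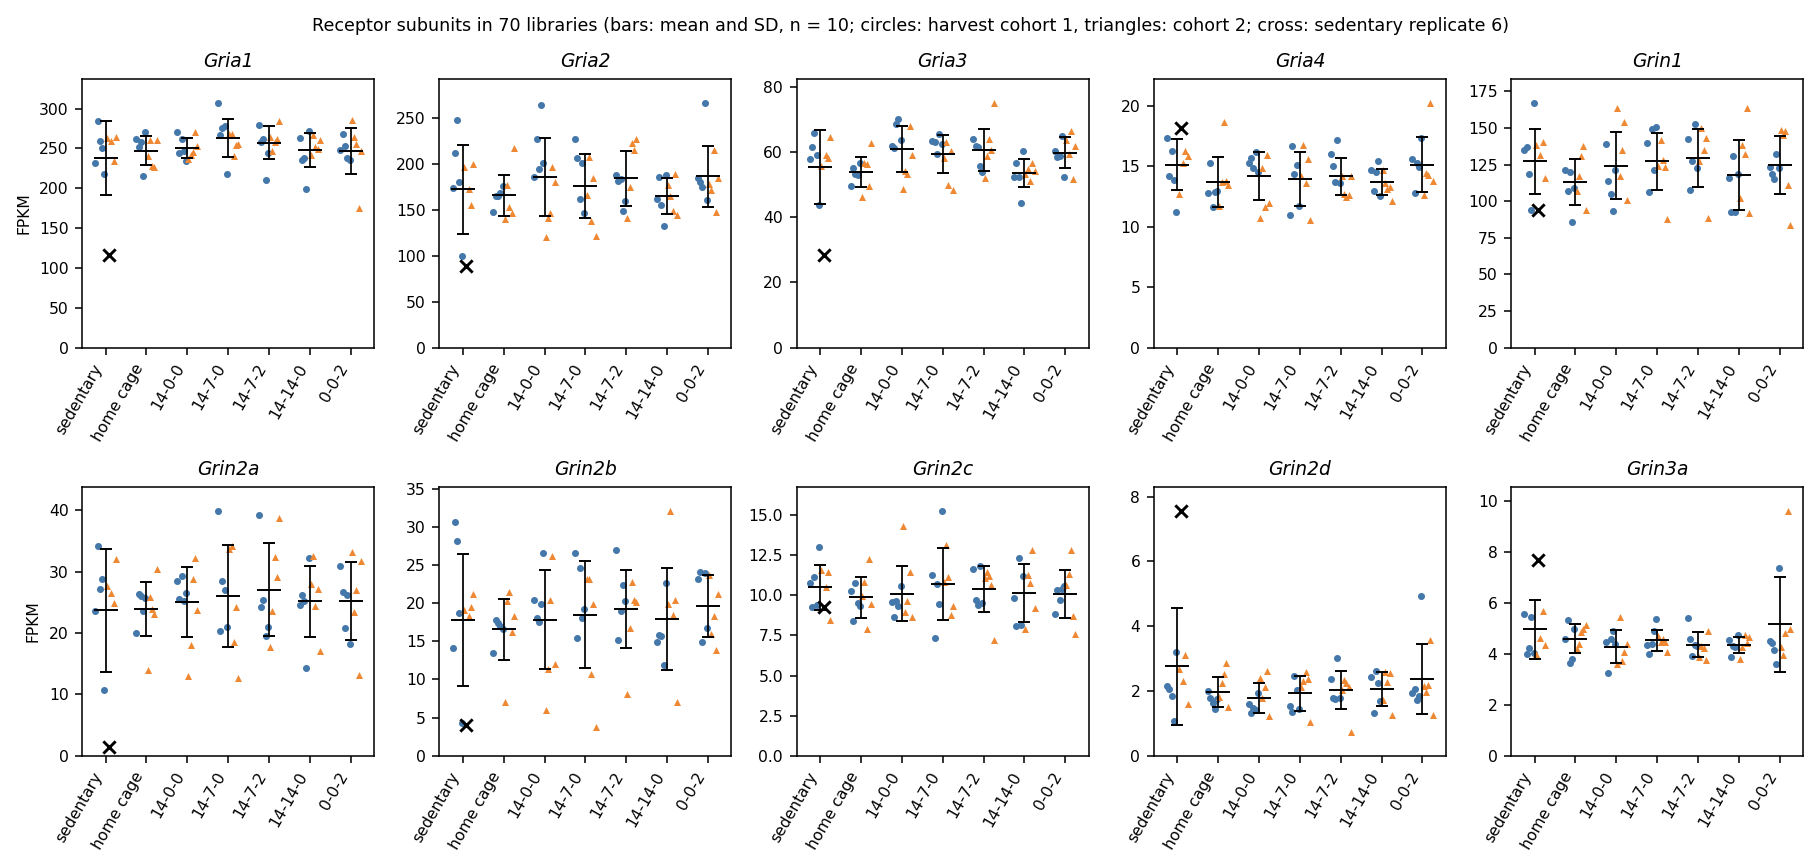
FPKM of each subunit in 70 libraries, by group; each panel starts at 0, circles are harvest cohort 1, triangles cohort 2, and the black bars give mean and SD (n = 10). The groups overlap in every panel, and the cross, sedentary replicate 6, is the lowest of 70 for Gria1 (116 FPKM), Gria2 (88.9), Gria3 (28.4) and Grin2a (1.48) and the highest for Grin2d (7.54).

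Gria1 ranged from 116 to 284 FPKM in sedentary mice, with a median of 255. In 14-0-0 it ranged from 235 to 271 with a median of 246, in 14-7-0 from 218 to 307 with a median of 267, and in 14-7-2 from 210 to 284 with a median of 260. In 14-14-0 the range was 199 to 272 (median 251), in 0-0-2 175 to 286 (median 250) and in home cage 216 to 270 (median 255). Apart from sedentary replicate 6, whose 116 FPKM lay far below, the sedentary range of 218 to 284 FPKM covered most values of every group. Gria2, which makes the receptor calcium-impermeable, varied more. It ranged from 88.9 to 247 FPKM in sedentary mice (median 177), from 121 to 264 in 14-0-0 (median 190), from 141 to 228 in 14-7-2 (median 182) and from 132 to 189 in 14-14-0 (median 163).

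Gria3 had its highest mean in 14-0-0, at 60.8 ± 7.14 FPKM (SD, n = 10), and its lowest in 14-14-0, at 53.6 ± 4.2. Sedentary mice stood at 55.4 ± 11.2 FPKM, and at 58.4 ± 6.36 (n = 9) without replicate 6. Gria4 means ran from 13.7 ± 2.05 FPKM in home cage to 15.1 ± 2.26 in 0-0-2, less than 1 SD apart.

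Grin1, the subunit that every NMDA receptor needs, ranged from 94 to 167 FPKM in sedentary mice (median 133), from 93.3 to 163 in 14-0-0 (median 119) and from 88.2 to 153 in 14-7-2 (median 132). In home cage it ranged from 86 to 138 FPKM, with a median of 113. Of 10 home cage values, 1 lay above the sedentary median. Grin2c means ran from 9.88 ± 1.26 FPKM in home cage to 10.7 ± 2.25 in 14-7-0, and Grin3a means from 4.27 ± 0.647 in 14-0-0 to 5.16 ± 1.86 in 0-0-2.

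On the log2 scale, the SD within groups over 69 libraries was 0.58 for Grin2b, 0.41 for Grin2d and 0.39 for Grin2a, above that of every other member. Grin2a ranged from 1.48 to 34.2 FPKM in sedentary mice (median 26.8), from 13 to 32.3 in 14-0-0 (median 26), from 12.7 to 39.8 in 14-7-0 (median 25.6) and from 17.7 to 39.1 in 14-7-2 (median 24.8). The next lowest sedentary values were 10.7 and 23.6 FPKM, so 2 libraries held the low end. Grin2b ranged from 3.98 to 30.6 FPKM in sedentary mice (median 18.9), from 5.97 to 26.6 in 14-0-0 (median 19), from 3.74 to 26.6 in 14-7-0 (median 19.6) and from 8.11 to 27 in 14-7-2 (median 20.2). Its low values were not in 1 group: sedentary replicates 6 and 4, 14-7-0 replicate 9, 14-0-0 replicate 5 and home cage replicate 5 all lay between 3.74 and 7.03 FPKM.

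No subunit passed the test in any comparison with sedentary mice. The call rests on limma's p for log2(FPKM + 0.1) being below 0.05 before adjustment. By that criterion 0 of 10 members were called in 14-0-0, where 9.15% of all 12994 genes tested were called. The count was also 0 of 10 in home cage (2.3% of all genes), in 0-0-2 (2.37%), in 14-14-0 (4.95%), in 14-7-2 (4.39%) and in 14-7-0 (3.26%). With sedentary replicate 6 left out it stayed 0 in 14-0-0 (10.3% of all genes), 14-14-0 (6.97%), 14-7-2 (3.58%), 0-0-2 (2.52%) and 14-7-0 (3.29%), and was 1 in home cage (3.15%). Cyber-T on FPKM called 1 member, Grin2d in 14-0-0 (6.25% of all genes), and 0 in 14-14-0 (4.23%), 14-7-2 (2.92%), home cage (2.26%), 14-7-0 (2.01%) and 0-0-2 (1.47%). At these shares of all genes, a count of 0 or 1 of 10 does not set the members apart from the rest. With all libraries, limma put no gene of the 12994 past Benjamini-Hochberg adjustment in these 6 comparisons. In 14-0-0, 4 genes (0.0308%) passed it without sedentary replicate 6 and 1 (0.0077%) by Cyber-T, none of them a member, and in the other 5 comparisons neither gave any. Each difference is on the log2(FPKM + 0.1) scale, which understates changes of low genes.

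For the abundant Gria1, Gria2, Gria3 and Grin1 the intervals were narrower than for Grin2a, Grin2b and Grin2d. Abundance did not set the order, since in 14-0-0 Grin2c (-0.25 to 0.13) and Gria4 (-0.29 to 0.10) had the narrowest. Gria1 differed from sedentary by 0.11 on the log2 scale in 14-0-0 (95% interval -0.13 to 0.35), by 0.175 in 14-7-0 (-0.074 to 0.425) and by 0.14 in 14-7-2 (-0.11 to 0.39). With sedentary replicate 6 left out these became -0.0035 (-0.11 to 0.10), 0.064 (-0.062 to 0.19) and 0.030 (-0.092 to 0.15). Gria3 differed by 0.16 (-0.093 to 0.415) in 14-0-0 and by 0.16 (-0.088 to 0.41) in 14-7-2, and by 0.058 and 0.057 without that library. Gria2 differed by 0.13 (-0.23 to 0.49) in 14-0-0, 0.063 (-0.28 to 0.41) in 14-7-0 and 0.14 (-0.19 to 0.47) in 14-7-2, and by 0.033, -0.036 and 0.039 without it. Grin1 differed by -0.035 (-0.27 to 0.20) in 14-0-0, 0.0041 (-0.22 to 0.23) in 14-7-0 and 0.032 (-0.20 to 0.26) in 14-7-2, and by -0.081, -0.042 and -0.015 without it. Each interval gives the differences that these libraries leave possible, and is not a limit of detection.

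The largest differences from sedentary belonged to Grin2a, Grin2b and Grin2d, and these 3 changed most without sedentary replicate 6. Grin2a was 0.46 higher in 14-7-2 (95% interval -0.41 to 1.33, limma p = 0.284, adjusted p = 0.847), with 4 of 10 libraries above the sedentary median. Without the library the difference was 0.059 (-0.34 to 0.46, p = 0.759). In 14-0-0 the difference of 0.36 (-0.51 to 1.23) became -0.042 (-0.44 to 0.35), and in 0-0-2 the 0.35 (-0.52 to 1.23) became -0.046 (-0.45 to 0.36). Grin2d was -0.45 in 14-0-0 (-0.95 to 0.044, limma p = 0.0718, adjusted p = 0.584), the smallest p of any member in the 6 comparisons. It was -0.28 (-0.65 to 0.098, p = 0.139) without the library, and 2 of 10 libraries of 14-0-0 lay above the sedentary median in either case. In 14-7-0 and 14-7-2 its differences of -0.37 and -0.32 became -0.19 and -0.14. Grin2b had the highest difference of any member in 0-0-2, 0.355 (-0.30 to 1.01, limma p = 0.275), which became 0.145 (-0.40 to 0.69) without the library. In 14-7-2 its 0.30 became 0.0865, and in 14-0-0 its 0.14 became -0.0725.

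**Figure D2:**
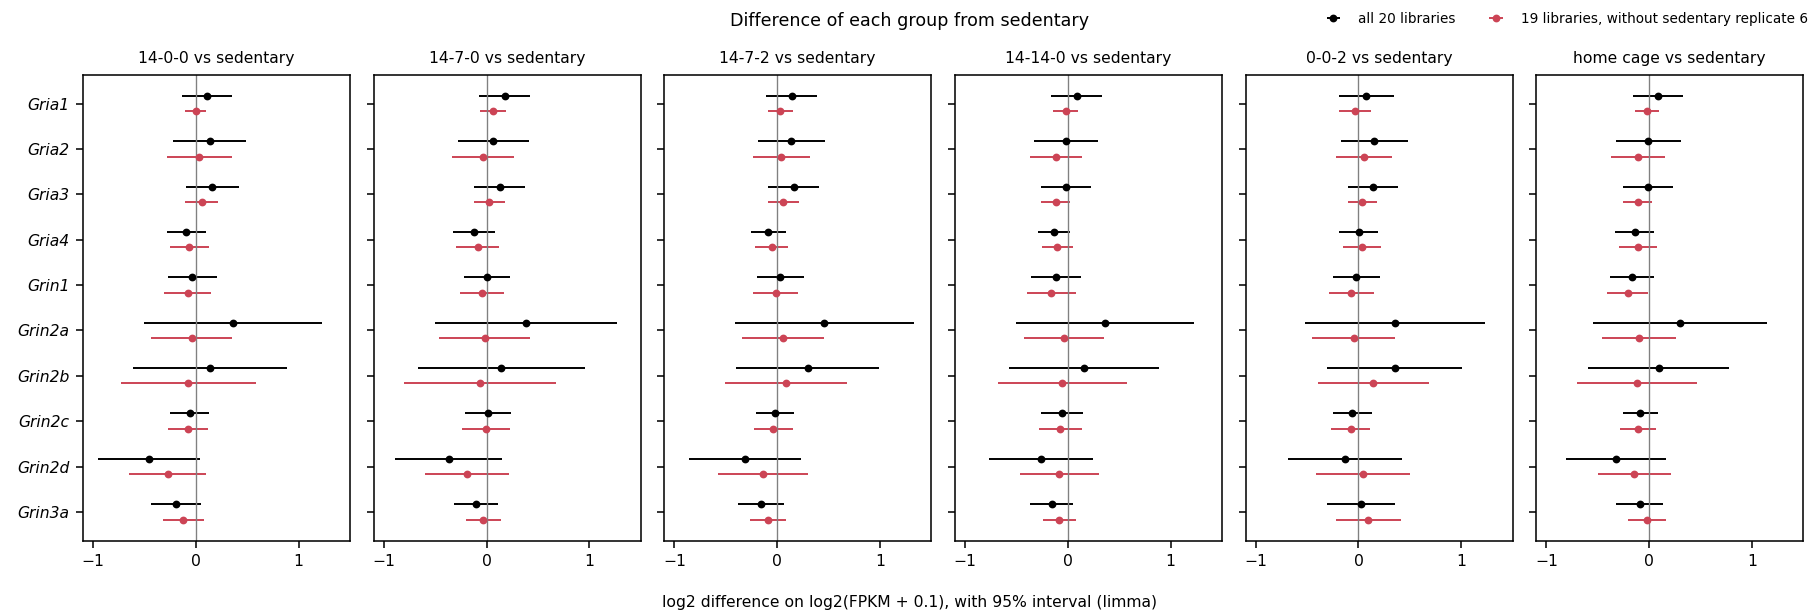
Difference of each group from sedentary for the 10 subunits, in log2 units on log2(FPKM + 0.1) with the 95% interval of limma, with all 20 libraries (black) and without sedentary replicate 6 (red, 19 libraries). Of the black intervals all 60 include 0, those of Grin2a, Grin2b and Grin2d are the widest, and of the red ones that of Grin1 in home cage (-0.41 to -0.0090) does not include 0.

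Home cage mice, which had no training, differed from sedentary mice in Grin1 by -0.16 (95% interval -0.38 to 0.049, limma p = 0.125). Without sedentary replicate 6 the difference was -0.21 (-0.41 to -0.0090, limma p = 0.0415, adjusted p over all genes = 0.994), so 1 of 10 members was called, beside 3.15% of all genes. The means were 113 FPKM in home cage and 131 FPKM in the 9 sedentary libraries. In 14-14-0 Gria4 had the smallest p, with -0.13 (-0.29 to 0.025, limma p = 0.0939), and no library of 10 was above the sedentary median of 15.5 FPKM. Without sedentary replicate 6 it was -0.10 (-0.25 to 0.049, p = 0.175). In harvest cohort 2 alone the difference in Gria4 was -0.22 (limma p = 0.0474), the 1 of 10 members called, beside 2.04% of all genes. That cohort includes sedentary replicate 6, whose 18.1 FPKM was the highest sedentary value of Gria4. In harvest cohort 1 alone, 0 of 10 members were called, beside 4.62% of all genes.

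Direct comparisons of the exercise groups used no sedentary library and called 0 of 10 members too. Against 14-7-0, 14-0-0 had member differences from -0.090 (Grin3a) to 0.069 (Gria2), beside 5.63% of all genes called. Adding 2 days of reactivating running after the delay, 14-7-2 against 14-7-0, gave -0.056 (Grin3a) to 0.15 (Grin2b), beside 5.39% of all genes. Against 0-0-2, which had the same 2 days without the earlier running, 14-7-2 gave -0.18 (Grin2d) to 0.11 (Grin2a), beside 2.43%. Gria1 and Gria3 had the narrowest intervals. Those of Gria1 were narrowest in the first and second, where its differences were -0.068 (95% interval -0.18 to 0.040) and -0.034 (-0.16 to 0.090), and in the third Gria3 had 0.019 (-0.11 to 0.15) and Gria1 0.064 (-0.086 to 0.21). Grin2b was held least in the first and second, with intervals of -0.66 to 0.65 and -0.44 to 0.75, and Grin2d in the third, with -0.64 to 0.28. Library 14-7-0 replicate 4 mattered for 1 call: without it, Gria1 was -0.098 in 14-0-0 against 14-7-0 (limma p = 0.0483), the 1 of 10 members called beside 5.85% of all genes.

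Harvest cohort, the day of tissue collection, was compared over all 70 libraries with the group as a covariate. It called 0 of 10 members, beside 11.9% of all genes, and 76 genes, none of them a member, passed adjustment. Grin2b had the largest difference, -0.24 in cohort 2 (95% interval -0.55 to 0.060, limma p = 0.115), and Grin2d was 0.16 (-0.064 to 0.38). The cohort difference of Gria1 was -0.026 (-0.11 to 0.062).

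Sedentary replicate 6 split the family. It held 17.7 times less Grin2a than the mean of the other 9 sedentary libraries (1.48 against 26.2 ± 6.68 FPKM, SD, n = 9) and 4.86 times less Grin2b (3.98 against 19.3 ± 7.62). Gria1, Gria2 and Gria3 stood at 0.461, 0.489 and 0.486 of those means. Grin2d stood at 3.39 times (7.54 against 2.23 ± 0.69 FPKM), Grin3a at 1.65 times (7.66 against 4.65 ± 0.711) and Gria4 at 1.23 times (18.1 against 14.8 ± 1.94). Grin1, Grin2c, Gria4, Grin2b and Grin3a were within the range of the other 69 libraries. The glutamatergic and granule cell markers above were low in the same library. Gad2 (139 FPKM, 28.1 to 106 in the others), Slc32a1 (175, 8.87 to 74.5) and Zic1 (97.3, 1.08 to 44.7) were high. Of the 6 inhibitory neuron markers, 3 were the highest of all libraries and 2 the lowest. The latter were Pvalb (19.9 FPKM, 28.6 to 87.9 in the others) and Vip (2.08, 4.59 to 16.1). Of the 7 thalamus markers, 3 were the highest, and Lef1 (1.22 FPKM) lay below the median of the others (1.57). A single library cannot show whether subunits and markers vary together. In bulk tissue, fewer cells of a type and less RNA per cell cannot be told apart. The part of these cells in the subunit values was not tested.

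A pair of 0-0-2 libraries also stood apart in some members and marker lists. Replicate 8 had the highest Grin3a (9.57 FPKM) and Gria4 (20.2) of all libraries and, after sedentary replicate 6, the lowest Gria1 (175). Its summed thalamus markers were 74.9 FPKM, its inhibitory neuron markers 822 FPKM and its meninges markers 99.6 FPKM, the last the highest of 70. The thalamus list did not move as one there, since Prkcd was the lowest of 70 at 2.75 FPKM, and the summed oligodendrocyte markers were the 4th lowest where those of sedentary replicate 6 were the highest. Replicate 4 had Grin3a at 7.34 FPKM and Grin2d at 4.93, the highest after sedentary replicate 6, with thalamus markers at 177 FPKM against a median of 36.1. High thalamus sums were not particular to this pair: 14-14-0 replicate 3 had 211 FPKM and 14-7-2 replicate 3 had 133. Without both 0-0-2 libraries, Grin3a in 14-7-2 against 0-0-2 went from -0.18 to 0.0063. Their part in these values was not tested.

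Within groups, the subunits fell into blocks that rose and fell together from library to library. Residuals from the group means of log2(FPKM + 0.1) were compared over the 69 libraries without sedentary replicate 6, for 45 pairs, of which 11 had Pearson r above 0.5. Gria2 and Gria3 had r = 0.865 (permutation p = 1e-05, the smallest that 100000 permutations can give, adjusted over 45 pairs 4.5e-05; Spearman rho = 0.83, p = 1e-05). Grin2a and Grin2b had r = 0.85 (p = 1e-05; rho = 0.77), Gria3 and Grin2a 0.80, and Gria2 and Grin2a 0.74. These 4 genes formed the first block, with Gria1 at 0.645 to Grin2a, 0.52 to Gria3, 0.475 to Gria2 and 0.33 to Grin2b. Grin1, Grin2c and Grin2d formed the other, with r = 0.75 for Grin1 and Grin2c (permutation p = 1e-05; rho = 0.775), 0.69 for Grin1 and Grin2d (p = 1e-05; rho = 0.65) and 0.51 for Grin2c and Grin2d (p = 2e-05; rho = 0.51). Without the 2 libraries farthest in the first gene of each pair the values were 0.83, 0.80, 0.75 and 0.67 in the first block and 0.71, 0.63 and 0.44 in the other. Within cohort 1 and cohort 2, Gria2 with Gria3 gave 0.86 and 0.88, Grin2a with Grin2b 0.81 and 0.89, and Grin1 with Grin2c 0.675 and 0.80. Between the blocks, Gria3 and Grin2d had r = -0.41 (permutation p = 0.0007, adjusted p = 0.00225; rho = -0.37).

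**Figure D3:**
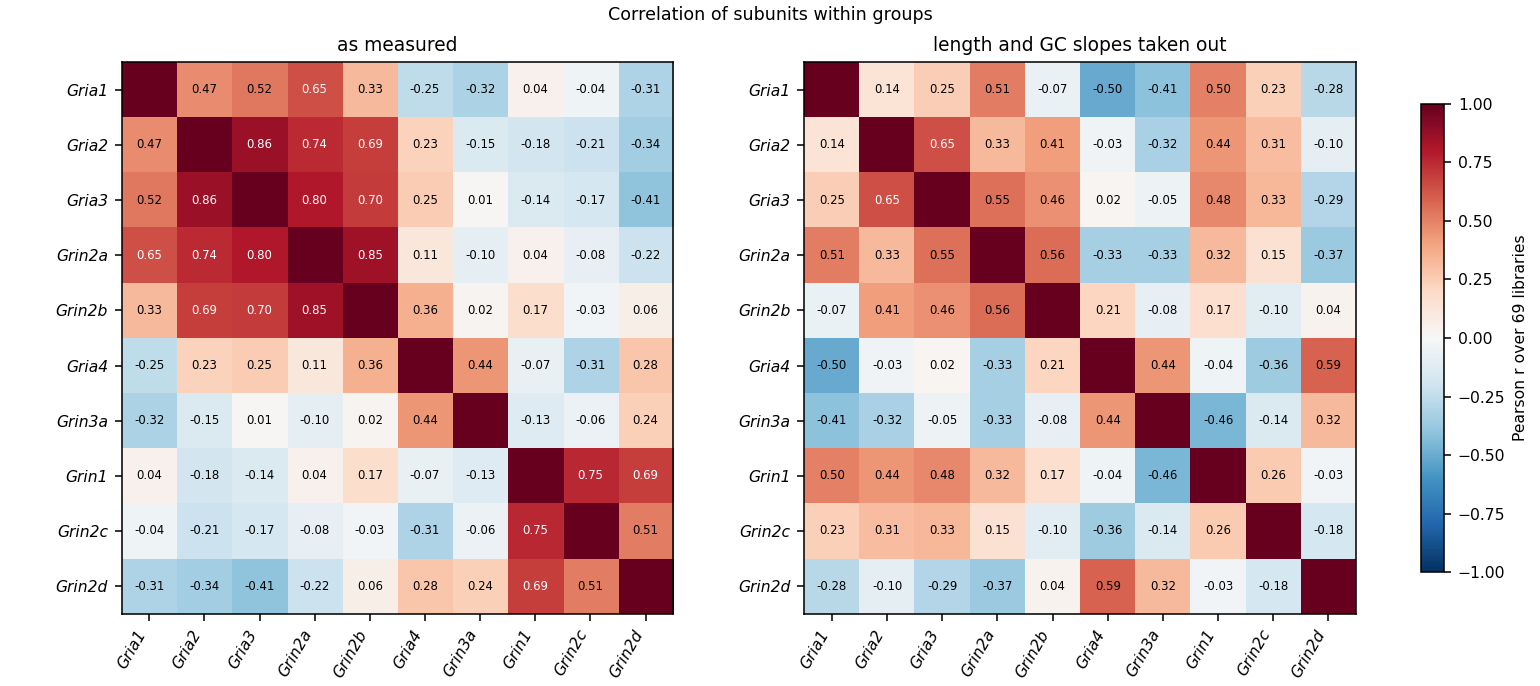
Pearson r of each pair of subunits over 69 libraries after the group means were subtracted (left), and after the length and GC slopes of each library were also taken out by least squares (right); red is positive, blue negative, scale -1 to 1. The left panel has a block of Gria1, Gria2, Gria3, Grin2a and Grin2b (up to 0.865) and one of Grin1, Grin2c and Grin2d (up to 0.75); on the right the second block falls to between -0.18 and 0.26.

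Most members of the 2 blocks varied with slopes of each library over transcript length and GC content. For each library, the deviations of 12017 other genes from their means were regressed on transcript length and GC content, giving a length slope and a GC slope that use no member. GC slope ranged from -0.557 (14-7-2 replicate 9) to 0.401 (sedentary replicate 4), in log2 units per 10 points of GC, and length slope from -0.177 (sedentary replicate 6) to 0.112 (14-7-0 replicate 6), per doubling of length. Group medians of GC slope lay between -0.0253 (14-0-0) and 0.106 (sedentary), well inside the range within each group. Those of length slope lay between -0.0206 and 0.0415, again lowest in 14-0-0 and highest in sedentary.

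Grin1, with a GC content of 59.4%, had r = 0.87 with GC slope over the 69 libraries (permutation p = 1e-05, adjusted over 20 relations 2.22e-05; rho = 0.85), 0.84 without the 2 farthest libraries, and 0.87 in either cohort. Grin2d had r = 0.76 (p = 1e-05; rho = 0.75) and Grin2c 0.75 (p = 1e-05; rho = 0.71). Without the 2 farthest libraries they had 0.69 and 0.71, within cohort 1 0.57 and 0.78, and within cohort 2 0.89 and 0.73. Gria2, the member lowest in GC, had r = -0.53 (permutation p = 1e-05; rho = -0.50), with -0.54 without the 2 farthest and -0.68 and -0.38 within cohorts 1 and 2. Grin2b and Grin2a, with the longest transcripts, followed length slope instead, with r = 0.79 (permutation p = 1e-05; rho = 0.67) and 0.77 (p = 1e-05; rho = 0.64). Without the 2 farthest libraries both had 0.69, and within the cohorts 0.71 and 0.87 for Grin2b and 0.76 and 0.78 for Grin2a. Grin3a followed neither, with r = 0.098 and 0.030.

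Together the slopes went with 83.4% of the variance of Grin1 within groups, 74% of Grin2a, 65.5% of Grin2b, 65.1% of Gria2, 59.9% of Gria3, 59.6% of Grin2d and 57.7% of Grin2c. They went with 25.4% of that of Gria1, 10.2% of that of Gria4 and 0.994% of that of Grin3a. Gria3 and Gria4 differed in this although their transcripts are close in length (5192 and 5441 bases) and GC content (43.0% and 44.3%). With the slopes taken out, 6 of 45 pairs still had r above 0.5, against 11 before. Gria2 with Gria3 had 0.65, Grin2a with Grin2b 0.56 and Gria3 with Grin2a 0.55, while Grin1 with Grin2c fell to 0.26 and Grin1 with Grin2d to -0.027. Gria4 with Grin2d went from 0.28 to 0.59. What lies behind the slopes was not tested.

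**Figure D4:**
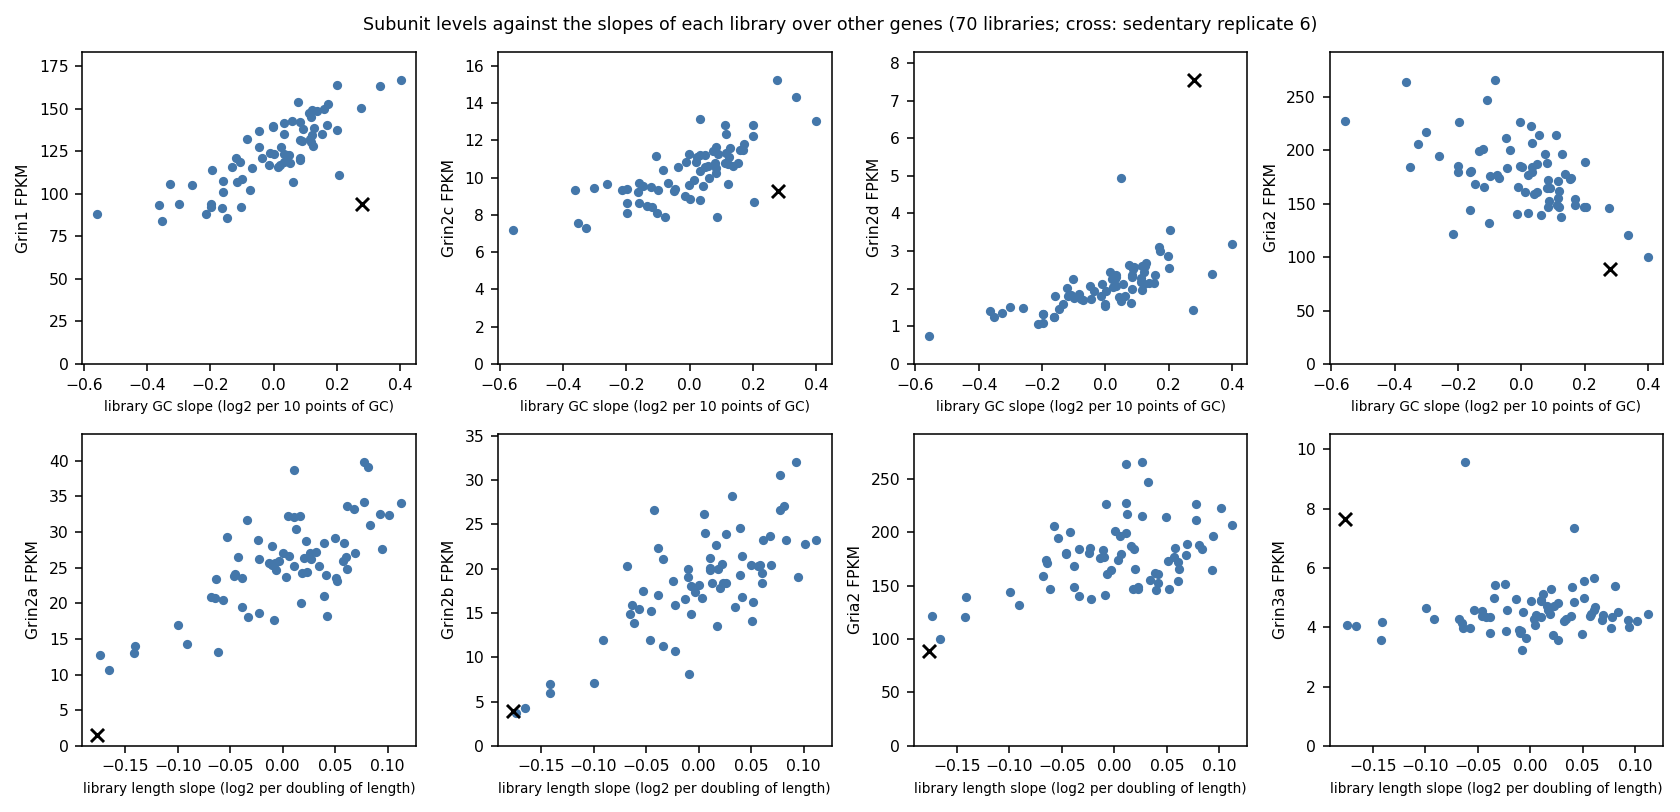
FPKM of 4 subunits against the GC slope of each library (upper row) and of 4 against its length slope (lower row), 70 libraries, with sedentary replicate 6 as a cross; FPKM axes start at 0. Grin1, Grin2c and Grin2d are higher in libraries of higher GC slope and Gria2 lower. Grin2b is lowest in the 6 libraries of lowest length slope, and Grin3a shows no such trend. Grin2a is low in these 6 but overlaps the rest: leaving sedentary replicate 6 aside, 10.7 to 17 FPKM against 13.1 to 39.8 in the other 64.

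The libraries with the 6 lowest length slopes came from 5 groups: sedentary replicates 6 and 4, 14-7-0 replicate 9, 14-0-0 replicate 5, home cage replicate 5 and 14-14-0 replicate 9. Leaving sedentary replicate 6 aside, Grin2b in these was 3.74 to 7.06 FPKM, against 8.11 to 32 in the other 64 libraries. Gria2 was 99.9 to 144 FPKM against 132 to 266, and Gria1 was 218 to 261 against 175 to 307. So Grin2b was lower in every one of them, and Gria1 was not. Without the 6 libraries, 3 of 10 members were called in 14-14-0 against sedentary, Gria2, Gria3 and Gria4, each lower, beside 11.2% of all genes. In home cage 1 of 10 was called, Gria3, also lower, beside 3.7% of all genes. This choice was made after the values were seen.

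With both slopes as covariates, also chosen after the data were seen, limma called Grin1 in 14-0-0 (higher), Grin2b in 0-0-2 (higher) and Grin2b between cohorts (log2 difference -0.225, p = 0.00844), 1 of 10 members in each. In the same fits 13%, 3.85% and 19.5% of all genes were called.

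Several subunits also moved with cell type markers within groups. Over 110 relations of members with 11 marker scores (the mean log2 deviation of each list), 14 had r beyond 0.5 in either direction, and 8 did with the slopes taken out. Grin1 had r = 0.78 with the CA1 and CA3 pyramidal score (permutation p = 1e-05, adjusted p = 0.0001; rho = 0.75), 0.78 without the 2 farthest libraries, 0.65 and 0.85 within cohorts and 0.66 with the slopes taken out. Grin2c had r = 0.70 with the same score (p = 1e-05; rho = 0.71), and 0.40 with the slopes taken out. Gria1 had r = 0.51 with the dentate granule score (permutation p = 4e-05; rho = 0.36) and Gria4 -0.54 (p = 1e-05; rho = -0.45), with 0.44 and -0.47 without the 2 farthest and 0.48 and -0.67 with the slopes taken out. Grin2d had r = 0.59 with the inhibitory neuron score (permutation p = 1e-05; rho = 0.55), 0.52 without the 2 farthest and 0.37 with the slopes taken out. Grin1 had r = -0.56 with the choroid plexus score (permutation p = 1e-05; rho = -0.45) and -0.31 with the slopes taken out. Grin1 with the microglia score had r = 0.765 (permutation p = 1e-05; rho = 0.72) and 0.43 with the slopes taken out, and with the oligodendrocyte precursor score 0.685 (p = 1e-05; rho = 0.64) and -0.097. Grin2d with the precursor score had 0.72 (permutation p = 1e-05; rho = 0.65) and 0.37. All of these share a library on either side, and FPKM within a library share 1 total.

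The genes most like each member in this covariation, by Pearson r of the same residuals among 12994 genes over 69 libraries, are given as a description. Grin1 was most like Mast3 (0.95), Tecpr1 (0.94) and Camta2 (0.93). Grin2a was most like Kcnq3 (0.94), Lrrc7 (0.92) and Nrip1 (0.91), and Grin2b like Arfgef3 (0.93), Helz (0.92) and Lnpep (0.88). Kcnq3 encodes a potassium channel subunit of the M-current, and Lrrc7 a postsynaptic density protein. Gria1 was most like Adcy2 (0.82), Add2 (0.82) and Kalrn (0.82), Gria2 like Zfp329 (0.91), Vps13c (0.90) and Lrig2 (0.90), and Gria3 like Gria2 (0.865), Ralgapa1 (0.86) and Dmd (0.86). Gria4 was most like Eif5a2 (0.80), Lpgat1 (0.80) and Syt4 (0.79). Grin2c was most like Bcan (0.84), Gm996 (0.81) and Fam57b (0.80), Grin2d like Lppr3 (0.86), Gaa (0.85) and Adcy5 (0.84), and Grin3a like Cadm1 (0.77), Krt77 (0.75) and Cmtm4 (0.74). A member was among the 3 nearest genes of another only for Gria3.

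The partners of these receptors were examined in 5 lists of 47 genes, all of them tested: 12 AMPA auxiliary subunits, 12 synaptic scaffolds, 9 kainate and delta receptor genes, 7 metabotropic receptors and 7 calcium signalling partners. Of the 47, 1 was lower in 14-0-0 than in sedentary mice (2.13%, beside 9.15% of all genes), 3 were lower in 14-7-2 (6.38%, beside 4.39%) and 1 was higher in 0-0-2 (2.13%, beside 2.37%). None was called in 14-7-0 (3.26% of all genes), 14-14-0 (4.95%) or home cage (2.3%). Between exercise groups, 3 were higher and 3 lower in 14-7-2 than in 14-7-0 (12.8% of the 47, beside 5.39% of all genes), 1 higher and 3 lower in 14-7-2 than in 0-0-2 (8.51%, beside 2.43%), and none was called between 14-0-0 and 14-7-0 (5.63% of all genes). Between cohorts 1 was called (2.13%, beside 11.9%). None of the 47 passed adjustment over all genes in these fits. Without sedentary replicate 6, 4 of the 47 were called in 14-0-0 (8.51%, beside 10.3% of all genes) and 2 in 14-7-0 (4.26%, beside 3.29%). In 14-7-2 it was 3 (6.38%, beside 3.58%), where Grm3 and Grm4 were no longer called. In 14-14-0 it was 3 (6.38%, beside 6.97%), in 0-0-2 2 (4.26%, beside 2.52%) and in home cage 0 (3.15% of all genes). The genes added, all lower than in sedentary mice, were Shisa7, Shank2 and Grik4 in 14-0-0 and Grik4 and Grm7 in 14-7-0. Homer1 and Neto2 were added in 14-7-2, Homer1, Neto2 and Grm7 in 14-14-0, and Grik4 in 0-0-2. These added genes were named after their values were seen.

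With both slopes as covariates, 6 of the 47 were called in 14-0-0, all higher: Cnih3, Dlg3, Dlg4, Grm2, Camk2b and Camk2g (12.8%, beside 13% of all genes). In 14-7-2 against sedentary 4 were called, all lower: Grik3, Grm3, Homer1 and Neto2 (8.51%, beside 5.98%). Neto2 was lower in 14-14-0 (2.13%, beside 6.77%), Grip1 in home cage (2.13%, beside 2.88%), and Dlg1 and Fyn in 14-0-0 against 14-7-0 (4.26%, beside 9.9%). Cnih3 was the 1 higher in 0-0-2 (2.13%, beside 3.85%), and none was called in 14-7-0 (5.63% of all genes). In 14-7-2 against 14-7-0, 4 were higher and 5 lower (19.1%, beside 10.7%), and against 0-0-2 Grik3 and Grm3 were lower (4.26%, beside 4.33%). Between cohorts, where 19.5% of all genes were called, Cacng8, Grm3 and Pick1 were lower in cohort 2. Of these, 2 passed adjustment over all genes: Cacng8, which encodes a transmembrane AMPA receptor regulatory protein (log2 difference -0.28, limma adjusted p = 0.0133), and Grm3 (-0.12, adjusted p = 0.0457), beside 6.04% of all genes. This fit was chosen after the data were seen, and the paragraphs on single lists that follow give calls without the slopes unless they say otherwise.

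Among AMPA auxiliary subunits, Cnih3, a cornichon protein that binds AMPA receptors and slows their kinetics, was the 1 of 12 called with all libraries. It rose in 0-0-2 to 34.8 ± 5.14 FPKM from 27.3 ± 5.81 in sedentary mice (SD, n = 10 each; log2 difference 0.37, standard error 0.129, limma p = 0.00909, adjusted p = 1). Its range was 27.5 to 43.3 FPKM (median 34.2) against 13.6 to 35.9 (median 27.8), so the groups overlapped. The difference was 0.36 without sedentary replicate 6 (p = 0.0144), and it was 0.20 within cohort 1 and 0.54 within cohort 2. It also rose in 14-7-2 over 14-7-0, by 0.22 (limma p = 0.0454, adjusted p = 0.926), a call lost without 14-7-0 replicate 4 (0.18, p = 0.0887). Cyber-T did not make this call either (p = 0.0533). The list's median difference in 0-0-2 was -0.0051, beside 0.0064 for all genes. The transmembrane AMPA regulatory proteins of the list (Cacng genes) were not called in any comparison without the slopes.

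Among the scaffolds, Dlg1, which encodes SAP97, a relative of PSD-95 that binds GluA1 and GluN2 tails, was the 1 of 12 called with all libraries. It fell in 14-7-2 to 23.5 ± 1.01 FPKM from 26 ± 1.24 in 14-7-0 (SD, n = 10 each; log2 difference -0.145, standard error 0.0352, limma p = 0.00052, adjusted p = 0.487). Its range was 22 to 24.7 FPKM (median 23.8) against 24 to 27.8 (median 26), so the groups overlapped in a narrow band. The difference was -0.14 within cohort 1 and -0.15 within cohort 2. Cyber-T gave p = 0.0467 for Dlg1 in this comparison. The list's median difference was 0.0059, beside 0.0033 for all genes. Sedentary mice had 25.3 ± 2.8 FPKM of Dlg1 and 0-0-2 mice 23.7 ± 2.4.

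Among kainate and delta receptors, Grik3, a kainate receptor subunit of low glutamate affinity, fell in 14-7-2 to 4.81 ± 0.724 FPKM from 8.09 ± 4.11 in sedentary mice (SD, n = 10 each; log2 difference -0.62, limma p = 0.00432, adjusted p = 0.847). The sedentary values ran from 3.81 to 18.7 FPKM (median 7.53), the highest being replicate 6, and those of 14-7-2 from 3.96 to 5.8 (median 4.5). Without replicate 6 the sedentary mean was 6.9 ± 1.79 FPKM (n = 9). The difference was then -0.475 (limma p = 0.00332). Grik3 also fell in 14-0-0, by 0.49 on the log2 scale (limma p = 0.0219), by 0.34 without replicate 6 (p = 0.031), and by 0.41 with the slopes as covariates, where it missed the criterion (p = 0.0785). It fell in 14-7-2 against 0-0-2, by 0.47 (limma p = 0.0112), and by 0.26 without 0-0-2 replicates 4 and 8 (p = 0.0258). The home cage mean was 7.01 ± 1.43 FPKM and that of 14-7-0 5.83 ± 1.34.

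Grik1, another kainate subunit, fell in 14-7-2 by 0.26 against 14-7-0 (limma p = 0.0379) and by 0.28 against 0-0-2 (p = 0.0442, and 0.203 without 0-0-2 replicates 4 and 8). Against 14-7-0 its difference was -0.051 within cohort 1 and -0.47 within cohort 2. Cyber-T called Grik1 in neither comparison (p = 0.0641 against 14-7-0 and 0.0533 against 0-0-2). Neto1, an auxiliary protein of kainate and NMDA receptors, rose in 14-7-2 by 0.31 against 14-7-0 (limma p = 0.0181) and by 0.21 against 0-0-2 (p = 0.039). Within cohorts 1 and 2 its differences were 0.415 and 0.20 from 14-7-0, and 0.33 and 0.084 from 0-0-2. The call against 0-0-2 was lost by Cyber-T (p = 0.051) and with the slopes as covariates (limma p = 0.0509). Its means were 31.7 ± 5.69 FPKM in 14-7-2, 25.8 ± 5.41 in 14-7-0 and 27.3 ± 3.48 in 0-0-2 (SD, n = 10 each).

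Among metabotropic receptors, Grm3, an inhibitory receptor found on neurons and astrocytes, fell in 14-7-2 to 13.2 ± 1.29 FPKM, from 15.2 ± 1.68 in 14-7-0 (log2 difference -0.20, limma p = 0.00788, adjusted p = 0.66), 14.9 ± 1.4 in 0-0-2 (-0.165, p = 0.0133) and 15 ± 2.07 in sedentary mice (-0.17, p = 0.0475, and p = 0.0808 without replicate 6). These 3 comparisons share the 14-7-2 libraries. Cyber-T called Grm3 against 14-7-0 (p = 0.0225) but not against 0-0-2 (p = 0.0853) or sedentary mice (p = 0.113). Grm3 was also lower in harvest cohort 2, by 0.12 (limma p = 0.00373, adjusted p = 0.147). Within cohort 1 the difference from 14-7-0 was -0.27 and within cohort 2 -0.125. Grm4, a presynaptic receptor, fell in 14-7-2 against sedentary by 0.76 (limma p = 0.0454), and missed the criterion without replicate 6 (-0.54, p = 0.0923), which held 12.8 FPKM. Grm7, another presynaptic receptor, rose in 14-7-2 over 14-7-0 by 0.17 (limma p = 0.0178). Of the calcium signalling partners, the CaMKII and calcineurin genes and Fyn, none of 7 was called in any comparison without the slopes. With the slopes, Camk2b (0.32, limma p = 0.0341) and Camk2g (0.16, p = 0.0233) rose in 14-0-0 over sedentary and Fyn fell in 14-0-0 against 14-7-0 (-0.084, p = 0.0314). Without the slopes, their median difference from sedentary was 0.17 in 14-7-2, beside -0.00042 for all genes, and 0.050 without sedentary replicate 6.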

How the data were processed

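RNA from 70 dorsal hippocampi was sequenced as 50-base single reads from poly-A libraries. The authors aligned reads (ELAND v2e and Bowtie, unique matches, build mm10 per the labels) and deposited FPKM values from Cuffnorm, already scaled for library size and transcript length. The annotation and tool versions are not given in the sources used here. The study lists total reads by lane and index, which were not matched to libraries, and read counts per gene were not used here, so no counting interval is given and no count test was run. All 24346 genes and 70 columns were used as deposited.

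From these, log2(FPKM + 0.1) was tested with limma 3.58.1 (R 4.3.3, trend, two-sided) on the 20 libraries of each pair. The filter kept 12994 genes averaging 1 FPKM or more. A gene was called when p before adjustment was below 0.05, and Benjamini-Hochberg adjusted values were taken over the whole table. Each p measures the spread between mice. The 6 comparisons with sedentary mice share the sedentary libraries. Correlations used 100000 permutations in Python 3.11.15 with scipy 1.17.1. Scripts were tested on simulated data.

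The members and lists were chosen with earlier results of these data known. Named were all members, the called genes of each list (up to 3 per comparison and list by p) and the 3 genes most like each member. Alternatives were another pseudocount, filter and scaling, a joint fit, cohort, replicate number or choroid plexus score in the fit, Cyber-T, and libraries or cohorts left out. A further 3, with slopes or libraries left out, were added after seeing the data. Sequences and loci are from GENCODE M21 on GRCm38; some members' sequences are not reported here.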

Additional observations from a re-analysis of the deposited data

Results flagged for a closer look

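In each of 70 sets of 10 libraries (10 members in 7 groups), the gap between an extreme library and its neighbour was set against the whole range of the group. It exceeded Dixon's 95% criterion in 10 of 70 sets, where chance gives about 1 in 20 sets, or 3.5.

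Sedentary replicate 6, which goes against its tissue label, accounted for 3 of the 10. It held Gria1 at 116 FPKM (the next was 218), Grin2d at 7.54 FPKM (next 3.19) and Grin3a at 7.66 FPKM (next 5.67).

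Library 14-7-2 replicate 9, which has the lowest GC slope of all 70, stood apart for Gria3 at 74.9 FPKM (next 64) and for Grin2c at 7.2 FPKM (next 9.39). Grin2c stood at 14.3 FPKM in 14-0-0 replicate 5 (next 11.5). Gria1 stood at 199 FPKM in 14-14-0 replicate 3 (next 236) and at 175 FPKM in 0-0-2 replicate 8 (next 235). In home cage, Gria2 stood at 217 FPKM in replicate 9 (next 177) and Gria4 at 18.7 FPKM in replicate 7 (next 15.2). What set these libraries apart was not tested.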

How the results depend on the processing

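No member was called in any of the 10 comparisons as reported, and most alternatives gave 0 as well. The share of all genes called in the same fit follows each count. In 14-0-0 against sedentary, the joint fit called 1 (Grin2d, 11.9%) and Cyber-T 1 (Grin2d, 6.25%). There the slopes as covariates called 1 (Grin1, 13%) and the replicate block 2 (Grin2d and Grin3a, 14.5%). The joint fit called 1 in 14-7-0 (Gria1, 6.9%). Cohort 2 alone called 1 in 14-7-2 (Gria4, 4.23%) and 1 in 14-14-0 (Gria4, 2.04%). Without sedentary replicate 6, 1 was called in home cage (Grin1, 3.15%). Without 14-7-0 replicate 4, 1 was called in 14-0-0 against 14-7-0 (Gria1, 5.85%). The slopes called 1 in 0-0-2 (Grin2b, 3.85%) and 1 between cohorts (Grin2b, 19.5%). Without the 6 libraries of lowest length slope, 3 were called in 14-14-0 (Gria2, Gria3, Gria4, 11.2%) and 1 in home cage (Gria3, 3.7%). The cause of these moves was not tested.

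Of 800 member differences from sedentary over the alternatives, 92 reversed, 24 of them without the 6 libraries of lowest length slope and 18 without sedentary replicate 6, where 5 of 6 reversed for Grin2a and 4 of 6 for Grin2b and for Gria1. Grin2a was positive with all libraries. With sedentary replicate 6 left out, its difference was -0.042 in 14-0-0, and 14-14-0 gave -0.036, 0-0-2 gave -0.046 and home cage gave -0.098, while 14-7-0 ranged from -0.020 to 0.406 over its left-out libraries. With the 6 libraries of lowest length slope left out, 14-0-0 gave -0.094 and 14-7-0 gave -0.066, 14-7-2 gave -0.0935 and 14-14-0 gave -0.13, and 0-0-2 gave -0.20 while home cage gave -0.17. Grin2d, negative with all libraries, was 0.088 in 14-7-2 and 0.029 in 14-14-0 within cohort 1, and 0.060 in 14-14-0 without the 6 libraries. In 0-0-2 it was 0.045 without sedentary replicate 6, 0.22 within cohort 1, 0.014 with the slopes and 0.115 without the 6 libraries. Gria3 in 0-0-2 was -0.012 without the 6 libraries, and Grin3a in 14-7-2 against 0-0-2 was 0.0063 without 0-0-2 replicates 4 and 8.

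Libraries of the same replicate number matched unevenly. In each comparison between groups, 2 to 7 of 10 pairs had a correlation of deviations over 0.1. Of 20 libraries, 1 (0-0-2 against sedentary) to 9 (14-7-2 against 0-0-2) were most like their own number. Whether the numbers mark true pairs was not tested. In 14-0-0 against sedentary, the replicate block that called 2 members called 14.5% of all genes. The replicate block called 0 members in the other comparisons of groups. Read totals were not matched to libraries, so the precision that depth gives the lowest members, Grin2d and Grin3a, is not given, and the cohort difference of each effect was not tested.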
